A study of Rattus norvegicus with 6 samples.

Results

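Deubiquitinating enzymes were taken as all genes whose array symbol begins with Usp and a number, Otud, Otub, Josd, Atxn3 or Uchl and a number, with the interferon-induced Usp18 left out. This gave 50 genes of the 14168 with a probe set of their own symbol: 37 ubiquitin-specific proteases (USP), 6 ovarian tumour domain enzymes (OTU), 3 Machado-Joseph domain enzymes (MJD), 3 ubiquitin C-terminal hydrolases (UCH) and Usp6nl, which the symbol rule takes in although it encodes a GTPase-activating protein for Rab5 and no protease. Their mRNA was measured in the renal inner medulla, which holds the last stretch of the collecting ducts, of male Sprague-Dawley rats in 3 groups of 2 arrays. Vehicle rats received saline under the skin at 1 µl/h for 5 d, dDAVP rats received 40 ng/h of desmopressin, an agonist of the vasopressin V2 receptor, for 5 d, and in withdrawal rats the pump was removed after the same infusion, under light enflurane anaesthesia, and the rats were kept for 3 h more. The end of the infusion and the anaesthesia with pump removal cannot be told apart, since only the withdrawal group is described as having both. Nothing says that the arrays of a group hold different animals, so the spread behind a p-value is that between arrays and may be technical, and 2 arrays a group limit the precision of every value.

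Ubiquitin is attached to proteins by a chain of activating, conjugating and ligating enzymes, and deubiquitinating enzymes cut it off again. A chain of ubiquitin can send a protein to the proteasome, and ubiquitin on a membrane protein can send it to the lysosome, so the removal of ubiquitin can lengthen a protein's life or return it to the cell surface. In the collecting duct, vasopressin moves the water channel Aqp2 to the apical membrane, and Aqp2 and the epithelial sodium channel are both removed from the membrane after ubiquitination. Usp4 is known to bind Aqp2, and Usp10 was described in cultured collecting duct cells as a vasopressin-induced enzyme that spares the sorting nexin Snx3 and thereby the sodium channel. Usp2 and Uchl3 are also known to act on that channel.

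All 6 arrays carried the markers of the labelled tissue, and the dDAVP arrays had a lower signal for dim genes. The 10 collecting duct markers had a mean log2 intensity of 10.88 to 11.08 over the arrays, and the 6 proximal tubule markers of the cortex 6.84 to 7.19. Markers of other segments were less even. The 4 thick ascending limb markers were at 9.32 and 10.01 in vehicle, 9.82 and 10.18 in dDAVP and 10.23 and 9.64 in withdrawal. The 4 measured intercalated cell markers were at 7.83 and 8.77, 8.62 and 8.41, and 8.88 and 8.20 in the same order. Whether the cut of tissue differed between arrays was not tested. The median gene differed by -0.11 on the log2 scale in dDAVP against vehicle and by 0.14 in withdrawal against dDAVP. In the classes of brightness it ran from -0.18 in the third of 10 classes to -0.02 in the brightest for the first comparison, and from 0.23 to 0.03 in the same classes for the second. A cyclic loess normalization removes this shift, and values after it are given for some of the members it moved. Vehicle replicate 1 and dDAVP replicate 2 stood apart in dividing-cell genes, with a mean log2 intensity of the 6 measured markers of 8.20 and 7.97 against 8.95 to 9.53 in the other 4 arrays. In whole tissue, fewer cells of a type and less RNA per cell cannot be told apart.

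The members were brighter than the array at large. Of them 36 lay above the median level of all genes, with a median log2 intensity of 8.99 against 7.96. Since dim genes shifted between the groups, shares over all genes are not matched to the members for brightness. Among the 50 genes, Josd1 had the largest difference of those with higher signal in dDAVP against vehicle, and Usp4 and Usp51 were among those with lower signal. None passed a Benjamini-Hochberg adjusted p of 0.05 in limma, where 0% of all genes did; the smallest adjusted p of any gene was 0.549. With the threshold set at an unadjusted p of 0.05, 2 members were higher (Josd1 and Usp21), against 0.572% of all genes, and 3 were lower (Usp4, Usp51 and Usp48), against 6.85%. The arrays of both groups did not overlap in 5 members that were higher, against 4.8% of all genes, and in 17 that were lower, against 40.6%. The members' median log2 difference was -0.06, with 21 of 50 above 0, where the median gene was at -0.11 with 22.1% above 0. After loess the members' median was 0.02 with 28 above 0, and that of all genes 0.00 with 49.8% above 0. The counts of members at an unadjusted p under 0.05 changed with the array left out, and the share of all genes changed as well.

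Josd1, a Machado-Joseph domain enzyme that is known to act at the plasma membrane and in endocytosis, separated the dDAVP arrays most clearly. Its log2 intensity was 9.61 and 9.51 with vehicle, 10.05 and 10.04 with dDAVP and 9.49 and 9.68 after withdrawal. Both dDAVP arrays lay above all other arrays, and vehicle and withdrawal overlapped. The difference of dDAVP against vehicle was 0.48 ± 0.10 (SE), or 1.40-fold (limma, adjusted p = 0.549), and that of withdrawal against dDAVP -0.46 ± 0.10 (adjusted p = 0.26). Leaving out any 1 array kept the first value between 0.44 and 0.53. These 2 comparisons share the dDAVP arrays, so the values are not independent. RefSeq lists a pseudogene of Josd1, and whether the probes also read it is unknown.

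Usp21, which removes ubiquitin from histone H2A, also had both dDAVP arrays above all others. It was at 9.29 in both vehicle arrays, at 9.67 and 9.49 in dDAVP, and at 9.25 and 9.40 in withdrawal. The difference was 0.29 ± 0.11 after the infusion (adjusted p = 0.549 in limma) and -0.26 ± 0.11 after withdrawal (adjusted p = 0.263). Without dDAVP replicate 1 the first value was 0.20.

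Usp15, an enzyme of TGF-beta signalling that also works with the COP9 signalosome, was at 9.68 and 9.98 in vehicle, 10.20 and 10.01 in dDAVP and 9.75 and 9.84 in withdrawal. The vehicle arrays lay farther from each other than the higher of them lay from the lower dDAVP array. The difference was 0.28 ± 0.14 and, without vehicle replicate 1, 0.12. RefSeq lists a pseudogene of Usp15 as well.

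Otud5, an OTU enzyme known to restrain type I interferon production through Traf3, was at 10.04 and 9.94 in vehicle, 10.27 and 10.21 in dDAVP and 9.95 and 9.65 in withdrawal. Both dDAVP arrays were again the highest of the 6. The dDAVP difference was 0.25 ± 0.13 and the withdrawal difference -0.44 ± 0.13, or 1.36-fold lower (limma, adjusted p = 0.26). Without withdrawal replicate 2, its lowest array, the latter was -0.29. Over the same arrays the mean of the 8 interferon response markers was 10.43 and 10.68 in vehicle, 10.12 and 10.18 in dDAVP and 10.60 and 11.09 in withdrawal. Their part in the result was not tested.

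Usp10, the enzyme described as vasopressin-induced in cell culture, was at 8.74 and 8.78 in vehicle, 9.18 and 8.86 in dDAVP and 8.48 and 8.86 in withdrawal. Replicate 1 of dDAVP was high, while replicate 2 was at the level of the higher withdrawal array. The difference was 0.26 ± 0.16 (adjusted p = 0.559 in limma), and 0.10 without dDAVP replicate 1. On withdrawal it was -0.35 ± 0.16 (adjusted p = 0.281), and -0.16 without withdrawal replicate 1. Its partner Snx3 was not analysed here.

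**Figure D1:**
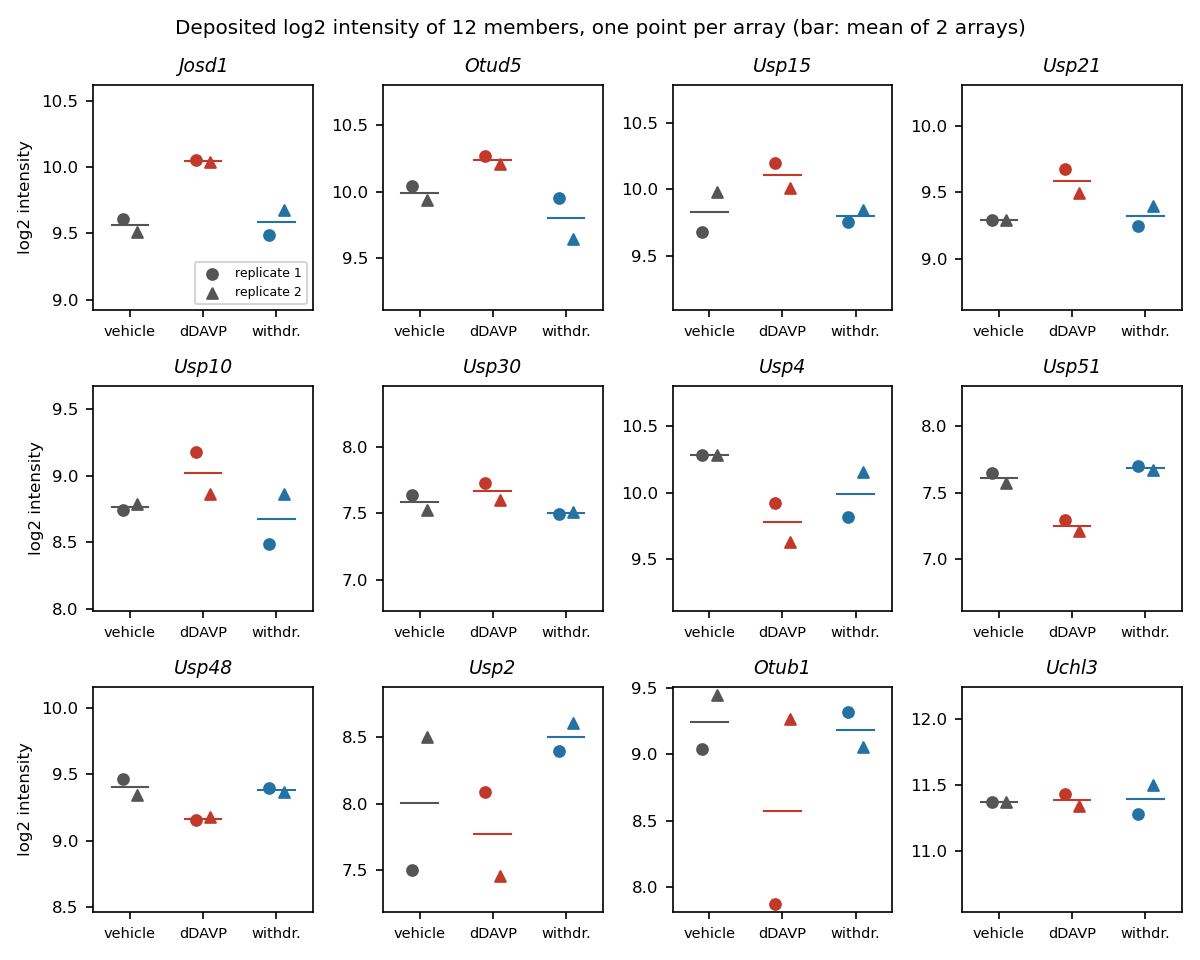
Log2 intensity as deposited of 12 members (vertical axes, all spanning the same width) in the vehicle, dDAVP and withdrawal groups (horizontal axis); each point is an array, circles replicate 1 and triangles replicate 2, and bars are means of 2 arrays. Josd1 lies at 10.05 and 10.04 in dDAVP and at most at 9.68 elsewhere, whereas Otub1 has a low value, 7.88, in dDAVP replicate 1 alone.

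Promoter sequence was available for 41 of the 50 members, as RefSeq's GRCr8 sequence from 250 bases before to 50 after the annotated start of the gene. Those of Josd1 at chr7:113124583-113124882 (minus strand), Usp21 at chr13:86241131-86241430 (minus strand) and Usp10 at chr19:64881547-64881846 (plus strand) are shown for enzymes whose dDAVP arrays lay above all others, and those of Usp48 at chr5:155083788-155084087 (plus strand) and Usp51 at chrX:21755529-21755828 (minus strand) for the 2 enzymes whose dDAVP arrays lay below all others also after loess. Capitals mark the GC box GGGCGG and, in Usp48 alone of these, the half-site TGACG of the cAMP response element, through which protein kinase A acts downstream of the V2 receptor, on either strand. The E-box CACGTG was searched on both strands too and was found in none of these windows. The 2 GC boxes of Usp48 overlap.
Josd1: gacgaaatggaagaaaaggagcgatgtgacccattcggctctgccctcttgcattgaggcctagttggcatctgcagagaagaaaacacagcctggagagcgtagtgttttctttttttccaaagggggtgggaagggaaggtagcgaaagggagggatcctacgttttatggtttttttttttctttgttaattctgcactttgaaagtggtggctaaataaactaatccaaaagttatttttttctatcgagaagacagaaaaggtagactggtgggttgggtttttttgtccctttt
Usp21: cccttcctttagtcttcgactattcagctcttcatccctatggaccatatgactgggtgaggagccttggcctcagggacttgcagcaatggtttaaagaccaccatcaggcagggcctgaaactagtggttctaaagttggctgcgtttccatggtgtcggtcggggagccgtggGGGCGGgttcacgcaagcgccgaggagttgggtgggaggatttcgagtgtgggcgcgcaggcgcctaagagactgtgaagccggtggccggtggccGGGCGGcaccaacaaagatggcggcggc
Usp10: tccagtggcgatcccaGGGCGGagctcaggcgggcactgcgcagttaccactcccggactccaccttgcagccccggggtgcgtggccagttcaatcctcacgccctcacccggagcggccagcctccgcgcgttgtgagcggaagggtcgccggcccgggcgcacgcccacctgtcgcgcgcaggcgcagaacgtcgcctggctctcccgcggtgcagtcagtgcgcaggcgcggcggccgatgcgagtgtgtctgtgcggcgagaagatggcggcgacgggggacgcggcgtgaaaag
Usp48: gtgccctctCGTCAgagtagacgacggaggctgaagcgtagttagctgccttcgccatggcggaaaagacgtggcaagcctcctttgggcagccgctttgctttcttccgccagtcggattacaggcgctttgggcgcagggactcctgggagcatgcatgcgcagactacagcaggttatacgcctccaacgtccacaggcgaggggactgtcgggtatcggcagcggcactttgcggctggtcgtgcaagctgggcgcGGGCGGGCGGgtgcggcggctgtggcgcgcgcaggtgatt
Usp51: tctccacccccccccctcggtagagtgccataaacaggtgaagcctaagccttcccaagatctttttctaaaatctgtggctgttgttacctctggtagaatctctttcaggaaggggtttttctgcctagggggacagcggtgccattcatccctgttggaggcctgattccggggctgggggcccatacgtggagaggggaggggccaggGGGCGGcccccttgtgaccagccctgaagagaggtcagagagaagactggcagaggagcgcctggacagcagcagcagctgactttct
The full cAMP response element TGACGTCA, which contains the half-site, was in 0 of the 41 member promoters and in 1.83% of all 33469 promoters. The half-site was in 16 of the 41 (39.0%, against 21.2% of all promoters). It was in 0 of the 5 members whose dDAVP arrays lay above all others as deposited (Josd1, Otud5, Usp10, Usp15 and Usp21). It was in 1 of the 2 that lay below all others also after loess (Usp48, not Usp51). These sets follow unlike rules, so their counts are not comparable. As deposited, 12 members lay below (against 33.6% of all genes), among them Usp13, Usp20, Usp31 and Usp48 with the half-site. After loess 9 lay above (against 8.6%), among them Usp20. GC boxes were in 27 of the 41 (65.9%, against 33.1%), among them Usp10, Usp15 and Usp21 of those 5. Member promoters had a median GC content of 61.7%, against 51.7% for all promoters, whereas that of Josd1 was 42.3%. The E-box was in 5 of the 41 (12.2%, against 6.42%), among them Usp4.

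Among the enzymes with lower signal after dDAVP, Usp4, the paralogue of Usp15 that is known to bind Aqp2, had the largest difference of those at an unadjusted p under 0.05. It was at 10.29 and 10.28 in vehicle, 9.92 and 9.63 in dDAVP and 9.82 and 10.16 in withdrawal. The vehicle arrays lay above all others, and withdrawal spanned the higher dDAVP array. The difference was -0.51 ± 0.15, or 1.42-fold (limma, adjusted p = 0.549), and -0.36 without dDAVP replicate 2. Withdrawal against dDAVP was 0.21 ± 0.15 and withdrawal against vehicle -0.30 ± 0.15 (adjusted p = 0.995).

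Usp51, a histone H2A deubiquitinase of the DNA damage response, was at 7.65 and 7.58 in vehicle, 7.29 and 7.21 in dDAVP and 7.71 and 7.67 in withdrawal. Both dDAVP arrays lay below all others. The difference was -0.36 ± 0.09 (adjusted p = 0.549 in limma) after the infusion and 0.44 ± 0.09 (adjusted p = 0.26) on withdrawal. After loess these were -0.21 and 0.26, since the median gene of its class of brightness was at -0.15 as deposited in the first comparison.

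Usp48, another histone H2A deubiquitinase, was at 9.47 and 9.35 in vehicle, 9.16 and 9.18 in dDAVP and 9.40 and 9.36 in withdrawal. Its difference of -0.24 ± 0.09 was -0.20 after loess and -0.12 when the array medians were subtracted. Over all 50 members, both dDAVP arrays lay above the other 4 in 5 (against 3.14% of all genes) and below them in 12 (against 33.6%). After loess these counts were 9 (against 8.6%) and 2 (against 8.21%), the latter Usp48 and Usp51.

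**Figure D2:**
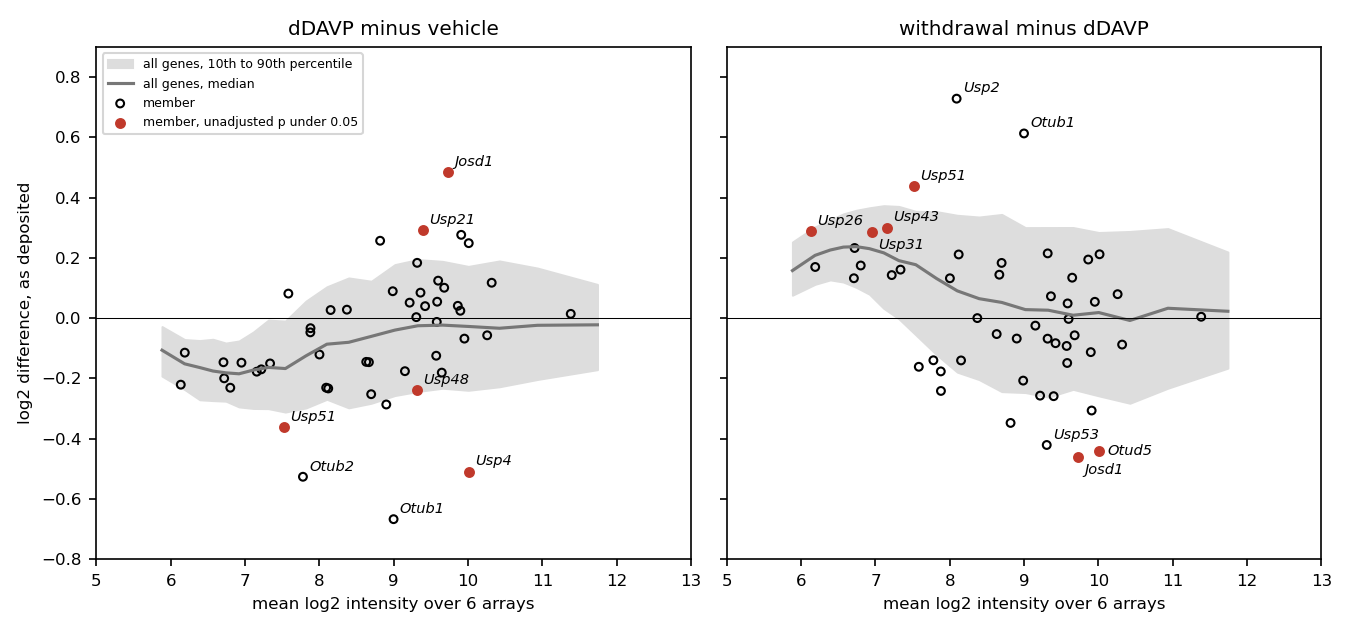
Log2 difference as deposited (vertical axis) against the mean log2 intensity over the 6 arrays (horizontal axis) for dDAVP minus vehicle (left) and withdrawal minus dDAVP (right); circles are the 50 members, filled at an unadjusted p under 0.05, the line is the median of all genes in 20 classes of brightness and the band their 10th to 90th percentile. Of the 25 dimmer members 20 lie below 0 on the left and 15 above 0 on the right, and Josd1, at 0.48 and -0.46, lies outside the band in both.

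Most of the dimmer members lay below 0 in dDAVP against vehicle. Of the 25 members with the lower mean intensity, 20 were below 0, with a median of -0.15. After loess 14 were, with a median of 0.00. These 25 are dim only beside the other members. They take in genes above the median level of all genes (7.96), such as Usp10 with a mean of 8.82. Usp26 and Usp29, known from the germ line and from imprinting, and Usp13 and Usp44 had the lowest mean intensities, between 6.14 and 6.72. Usp26 was at 6.32 and 6.05 in vehicle, 5.97 and 5.96 in dDAVP and 6.25 and 6.26 in withdrawal, and its difference of -0.22 ± 0.11 was -0.07 after loess. Usp49, a histone H2B deubiquitinase, was at -0.23 ± 0.11 and at -0.06 after loess. The differences of Usp20, Usp29, Usp31, Usp44, Otud4 and Usp6nl, all below 0 as deposited, were above 0 after loess, at 0.01 to 0.09. How far these probe sets lay above background is unknown.

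On withdrawal against dDAVP, Josd1 and Otud5 were lower and Usp51, Usp31, Usp43 and Usp26 higher at an unadjusted p under 0.05. No member passed an adjusted p of 0.05 in limma, nor did any other gene (0%). The 2 lower members stand against 1.64% of all genes and the 4 higher ones against 17.3%. Arrays did not overlap in 12 members that were lower, against 8.06% of all genes, and in 14 that were higher, against 49.6%. The members' median was 0.00, with 25 of 50 above 0, where the median gene was at 0.14 with 74.9% above 0. After loess the median was -0.05 with 19 above 0, against 50.9% of all genes. At an unadjusted p under 0.05, 7 members were then lower, against 3.32% of all genes, and 1 higher, against 3.19%. As deposited, the counts of higher and lower members at that threshold depended on the array left out, and so did the shares of all genes.

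Of the 4 higher members, 3 were dim and lost most of their difference after loess. Usp31 was at 6.84 and 6.77 in dDAVP and 7.10 and 7.08 in withdrawal, a difference of 0.28 ± 0.09 as deposited and 0.08 after loess. Usp43 went from 0.30 ± 0.10 to 0.10 and Usp26 from 0.29 ± 0.11 to 0.08. For Usp51 0.26 was left.

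The 12 members whose withdrawal arrays lay below both dDAVP arrays were Josd1, Otud5, Usp10, Usp15, Usp21, the tight junction protein Usp53, the mitochondrial Usp30, Otud4, Usp6nl, Otud7b (-0.21), Usp3 (-0.15) and Usp32 (-0.14). Usp53, classed as a USP by sequence, was at 9.30 and 9.59 in dDAVP and 9.14 and 8.91 in withdrawal, a difference of -0.42 ± 0.20 (limma, adjusted p = 0.28), with vehicle at 9.69 and 9.19. Usp30, which opposes the Parkin-driven clearance of mitochondria, was at 7.64 and 7.53 in vehicle, 7.73 and 7.60 in dDAVP and 7.49 and 7.51 in withdrawal. Its withdrawal difference was -0.16 ± 0.10 as deposited and -0.33 after loess, since the genes of its brightness were higher on withdrawal. Usp6nl, at 7.85 and 8.05 in dDAVP and 7.74 and 7.68 in withdrawal, gave -0.24 ± 0.11, and -0.37 after loess. Otud4, known from DNA alkylation repair, gave -0.18 ± 0.10, and -0.31 after loess.

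**Figure D3:**
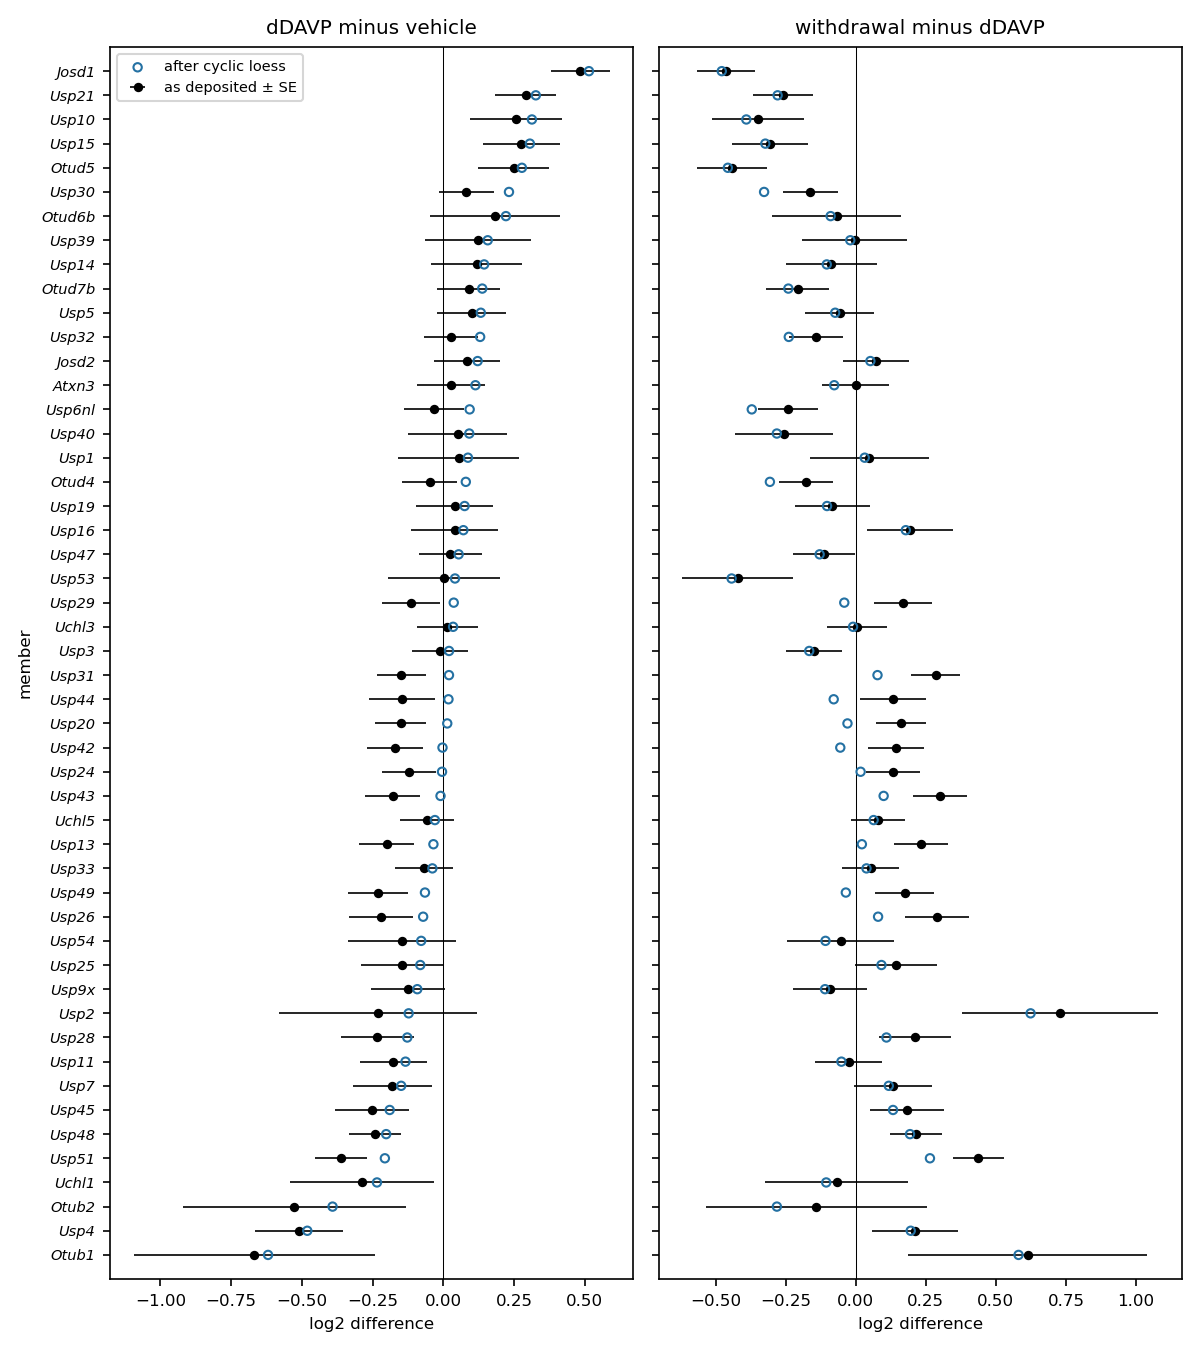
Log2 differences (horizontal axes) of all 50 members (vertical axis, in order of the dDAVP minus vehicle value after loess) for dDAVP minus vehicle (left) and withdrawal minus dDAVP (right); filled points with bars are values as deposited ± SE and open points values after cyclic loess. Josd1 is at the top with 0.48 and -0.46, and Usp4 (-0.51) and Otub1 (-0.67, with an SE of 0.43) are at the bottom of the left panel.

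Withdrawal against vehicle gave 1 member at an unadjusted p under 0.05, Usp6nl, which was lower (against 1.14% of all genes), and 0 that were higher (against 0.642%). Again 0% of all genes passed an adjusted p of 0.05 in limma (smallest 0.995). Usp6nl was at 8.02 and 7.94 in vehicle and differed by -0.28 ± 0.11. Arrays did not overlap in 13 members that were lower, against 13.1% of all genes, and in 5 that were higher, against 17.6%. Here too the counts at an unadjusted p under 0.05 and the shares of all genes changed with the array left out. The members' median was -0.02, with 21 of 50 above 0, and that of all genes 0.03, with 59.5% above 0. All 3 MJD enzymes were above 0, with a median of 0.03. Of the 6 OTU enzymes 5 were below 0, with a median of -0.16, which was -0.14 after loess. In limma's F-test over the 3 groups 0 members passed an adjusted p of 0.05, as did 0% of all genes. At an unadjusted p under 0.05 there were 5 (Josd1, Usp51, Otud5, Usp4 and Usp31), against 8.64% of all genes, and this count also changed with the array left out.

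Of the other enzymes tied to the sodium channel, Uchl3 lay close to 0 in each comparison and Usp2 had a wide spread. Uchl3 was at 11.37 in both vehicle arrays, 11.43 and 11.34 in dDAVP and 11.28 and 11.50 in withdrawal. The groups overlapped, and its difference after the infusion was 0.01 ± 0.11. Its other probe set gave 0.02, and RefSeq lists a pseudogene of it too. Usp14 and Uchl5, which trim ubiquitin chains on the proteasome, differed by 0.12 ± 0.16 and -0.06 ± 0.10, and Uchl5 spanned 10.20 to 10.33 over all 6 arrays. The sign for Uchl5 turned when array medians were subtracted (0.06).

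Usp2, a clock-controlled enzyme, had a wide spread that went across the groups. It was at 7.50 and 8.50 in vehicle, 8.09 and 7.46 in dDAVP and 8.40 and 8.61 in withdrawal. Vehicle replicate 1 and dDAVP replicate 2, the arrays with the low dividing-cell genes, had the lowest values. The difference of withdrawal against dDAVP was 0.73 ± 0.35, or 1.66-fold (limma, adjusted p = 0.288), and 0.41 without dDAVP replicate 2. After loess it was 0.62. That of dDAVP against vehicle was -0.23 ± 0.35, and -0.12 after loess, and turned to 0.27 without vehicle replicate 2 and 0.08 without dDAVP replicate 2.

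The same arrays were set apart in other members, as in many other genes. Vehicle replicate 1 and dDAVP replicate 2 both lay below the other 4 arrays in 8 members (16%), against 12.7% of all genes. Both lay above them in 8 (16%), against 10.9%. These counts are near the background, so the pattern is not particular to the members. The lower ones were Usp2, Usp1, Usp39, Usp16, Usp5, Usp33, Josd2 and Atxn3. Usp1, which acts on ubiquitinated Pcna and Fancd2 in DNA repair, was at 9.38 and 9.31 in these 2 arrays and at 9.50 to 9.86 in the others. Usp39, a splicing factor without protease activity, was at 9.34 and 9.40 there and at 9.61 to 9.88 in the others. The higher ones were Otub2, Usp53, Uchl1, Usp40, Usp54, Usp9x, Otud7b and Usp6nl. Otub2 was at 8.44 and 8.14 in these arrays and at 7.12 to 7.91 in the others. After loess Usp16, Josd2, Otud7b and Usp6nl were no longer set apart in this way, and Usp24, Usp31 and Usp43 joined the lower ones. Whether the cells of these arrays played a part was not tested.

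Otub1, which binds the conjugating enzyme Ube2n and holds back ubiquitin transfer, had the largest difference of all members in dDAVP against vehicle, and it rested on 1 array. It was at 9.04 and 9.44 in vehicle, 7.88 and 9.27 in dDAVP and 9.32 and 9.05 in withdrawal. The difference of -0.67 ± 0.43 was 0.03 without dDAVP replicate 1 and -1.36 without dDAVP replicate 2. Uchl1, a hydrolase known from neurons, had its lowest value in the same array, 8.42, against 8.67 to 9.23 in the others, and its difference of -0.29 ± 0.25 was 0.12 without it.

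**Figure D4:**
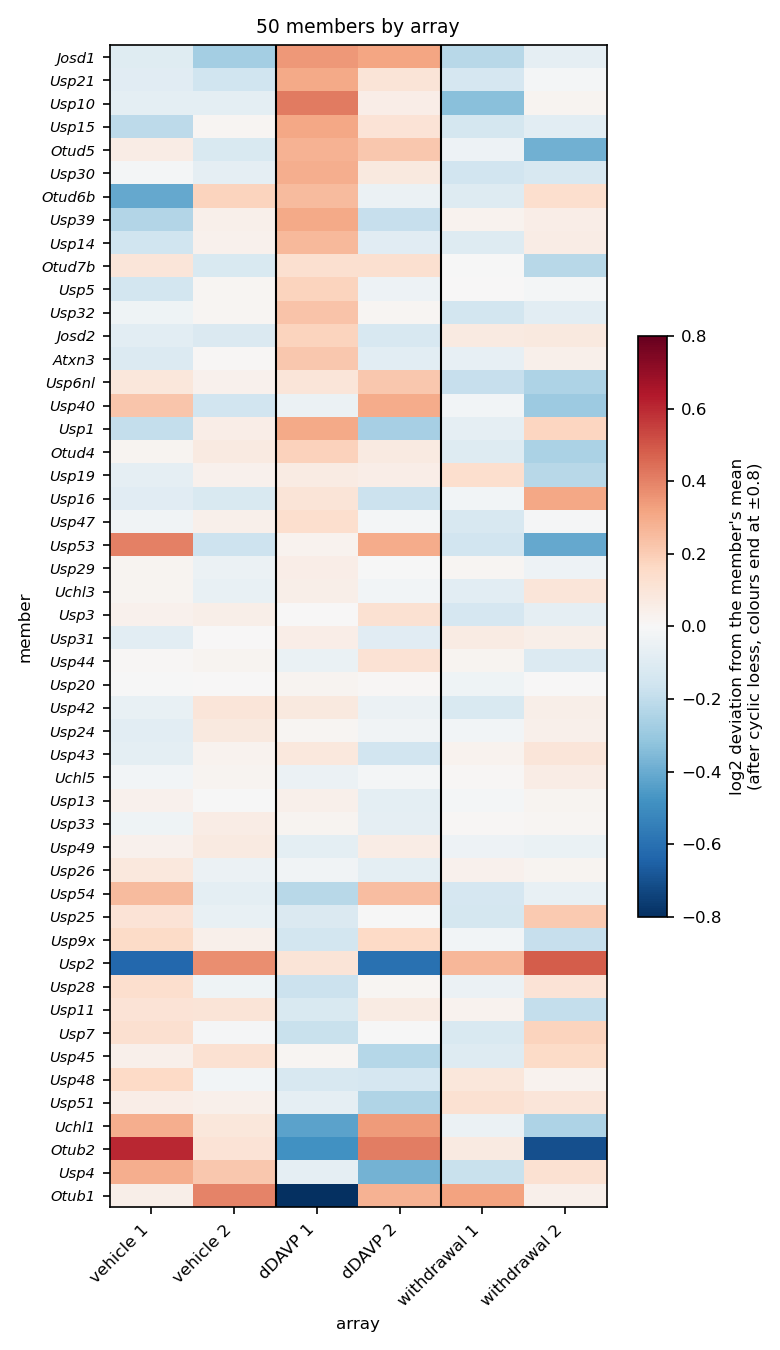
Deviation of each array (horizontal axis, groups separated by lines) from the member's own mean over the 6 arrays, in log2 after cyclic loess (colour, red above and blue below the mean), for the 50 members (vertical axis). Members stand in order of the dDAVP minus vehicle value after loess. This order places members that are red in both dDAVP arrays at the top, among them Usp10, which is close to its mean in dDAVP replicate 2. Usp2 is blue in vehicle replicate 1 and dDAVP replicate 2, and Otub1 is blue in dDAVP replicate 1.

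Some close relatives within the families gave different values and others similar ones, although the difference between relatives was not tested. Otub1 (-0.67 ± 0.43) and Otub2 (-0.53 ± 0.395) were both below 0 in dDAVP against vehicle, each with dDAVP replicate 1 far below replicate 2. Usp4 was at -0.51 ± 0.15, Usp15 at 0.28 ± 0.14 and their relative Usp11 at -0.18 ± 0.12 in dDAVP against vehicle. Josd2 was at 0.08 ± 0.12 beside 0.48 for Josd1, and Usp2 at -0.23 beside 0.29 for Usp21. The relatives Usp25 (-0.15 ± 0.15) and Usp28 (-0.23 ± 0.13) lay close together, and Usp20 (-0.15 ± 0.09) and Usp33 (-0.07 ± 0.10), which recycle receptors such as the beta2-adrenergic receptor, did too. After loess Usp28 was at -0.13, Usp25 at -0.08, Usp33 at -0.04 and Usp20 at 0.01. Usp16, a histone H2A deubiquitinase of mitosis, was at 0.04 ± 0.15 and its relative Usp45 at -0.25 ± 0.13, or 0.07 and -0.19 after loess. Usp5, which takes apart free ubiquitin chains, and its relative Usp13 were at 0.10 ± 0.12 and -0.20 ± 0.10, the latter at -0.03 after loess. Usp53 was at 0.00 ± 0.20 and Usp54 at -0.15 ± 0.19 (-0.08 after loess), with -0.26 in the other probe set of Usp54 and -0.07 in that of Usp13. Usp7, which stabilizes Mdm2 and p53, and the X-linked Usp9x were at -0.18 ± 0.14 and -0.12 ± 0.13, and Atxn3, the protein of Machado-Joseph disease and a partner of the segregase Vcp, was at 0.03 ± 0.12 and at 0.11 after loess.

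The rest of the ubiquitin system gave few genes at an unadjusted p under 0.05. Of 12 measured genes of other symbols, listed as deubiquitinases or proteins related to them, 0 were so in dDAVP against vehicle. On withdrawal against dDAVP the OTU enzyme Yod1 was higher at that threshold (0.28 ± 0.10, and 0.07 after loess). Uspl1, which acts on the related modifier SUMO, was lower (-0.23 ± 0.09). Over all genes 17.3% were higher and 1.64% lower there. Of the 9 measured partners of deubiquitinases 0 were so in either comparison. Adrm1, the proteasome's receptor for Uchl5, was at 8.25 and 8.49 in vehicle, 8.63 and 8.35 in dDAVP and 8.78 and 8.84 in withdrawal, and was the 1 partner at that threshold in withdrawal against vehicle (0.44 ± 0.14). The 6 measured activating enzymes of ubiquitin and its relatives also gave 0. Of 27 conjugating enzymes 0 were so after the infusion and 5 were higher on withdrawal, namely Ube2t (1.03 ± 0.38), Ube2n (0.49 ± 0.17), Ube2c (0.38 ± 0.15), Ube2l6 (0.37 ± 0.13) and Ube2q2l (0.29 ± 0.10). These 5 of 27 stand against the 17.3% of all genes that were higher, so the count is near the background. After loess Ube2c was at 0.20 and Ube2t at 0.87. Ube2c and Ube2t are known from dividing cells and Ube2l6 from the interferon response. Over the same arrays the dividing-cell markers had a median difference of 1.07 and the interferon markers one of 0.61, and their part in these values was not tested. None of these genes passed an adjusted p of 0.05.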

How the data were processed

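RNA was extracted with Trizol and labelled for whole-transcript Affymetrix gene arrays, per the labels' protocols. The authors deposited 1 intensity per probe set and array, summarised with RMA per the submitters' processing notes; its version and a build were not given in the sources used here. RMA normalizes between arrays, so a change common to most genes would be reduced. Intensities were linear (30.2 to 10778.7), and their log2 was analysed. Of 28524 probe sets, 14947 carried exactly 1 symbol in the array's annotation, 318 several, and 13259 were not listed there and are unnamed here. The probe set with the highest mean stood for each of 14168 genes, and all 50 members (53 probe sets) were found by Entrez number in RefSeq's table, 0 under another symbol. No filter was applied.

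All 6 arrays and all genes entered 1 linear model of the 3 group means (limma 3.58.1, R 4.3.3; 3 residual and 3.21 prior degrees of freedom per gene). Tests were two-sided, with Benjamini-Hochberg adjustment over all genes of a comparison. A check on simulated data required only the right sign for changes much larger than the members' differences. It does not show how well differences of the members' size are found. Named genes were, for each comparison, the 6 members with the smallest p in each direction, a fixed set of known roles, the 4 with the highest and the 4 with the lowest level, the 6 with the widest range, those with several probe sets and paralogues. Otud7b, Usp3, Usp24, Usp32, Usp39 and Usp40 fall outside this rule and were named after their values were seen. Loci of the families that carried no probe set of their own symbol, among them Usp8 and Usp22, were not analysed here. The members, lists and tests were chosen with earlier results of these data known.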

Additional observations from a re-analysis of the deposited data

How the results depend on the processing

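Under 15 alternatives, counts of members at an unadjusted p under 0.05 were compared with 2 higher and 3 lower members in dDAVP against vehicle, 4 and 2 in withdrawal against dDAVP, 0 and 1 in withdrawal against vehicle, and 5 in the F-test. No member passed an adjusted p of 0.05 in limma under any of them. In dDAVP against vehicle, the higher members numbered 4 with array medians subtracted, 1 with an intensity trend (0.353% of all genes) and 1 with the replicate block (0.318%). (Over all genes with medians subtracted, 2.63% were higher and 0.868% lower.) The lower ones numbered 1 after loess and after quantile normalization (1.47% and 1.56% of all genes), 0 with medians subtracted and 2 with the dimmest 25% of genes left out (4.02%). In withdrawal against dDAVP, the higher members numbered 1 under each of the 3 other normalizations (2.59% to 3.19% of all genes) and 7 with only the groups compared (19% of all genes). The lower ones numbered 7 after loess (3.32% of all genes), 12 with medians subtracted (6.35%), 8 after quantile normalization (3.34%) and 4 with only the groups compared (1.57%). In withdrawal against vehicle, the lower members numbered 2 after loess, after quantile normalization and with only the groups compared (1.28% to 1.96% of all genes). They numbered 0 with the dim genes left out, with the trend and with the replicate block. The higher ones numbered 0 in all of these. The F-test gave 3 members with the replicate block and 3 to 6 leaving out 1 array. All genes at an adjusted p under 0.05 numbered 0 to 2 leaving out 1 array in dDAVP against vehicle and in withdrawal against dDAVP, 2 of them without dDAVP replicate 1. The cause of these changes was not tested. Deviations of same-numbered arrays correlated over genes at r = -0.624 for vehicle and dDAVP. For vehicle and withdrawal r was -0.002, and for dDAVP and withdrawal -0.112. These values cannot settle whether equal replicate numbers pair the arrays. Over the 15 alternatives Josd1 ranged from 0.44 to 0.60 after the infusion and from -0.58 to -0.37 on withdrawal, and Usp51 from 0.26 to 0.48 on withdrawal. No difference at an unadjusted p under 0.05 changed sign. Usp48 and Usp51 after the infusion and Usp26, Usp31 and Usp43 on withdrawal lost that threshold under all 3 other normalizations. Usp4 after the infusion lost it with array medians subtracted. Usp21 after the infusion lost it with the intensity trend and with the replicate block. Usp6nl in withdrawal against vehicle lost it under both of these and with the dimmest genes left out. The alternatives overlap, since leaving out an array of the third group gives the same test as comparing only the 2 groups.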
